A study of Mus musculus with 3 samples.

Results

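The genes described here are the clustered histone genes of the mouse, the 68 gene entries among 24421 whose symbol begins with Hist1h, Hist2h, Hist3h or Hist4h. They were chosen by symbol alone, with no use of a measured value. By histone type they were 6 H1, 18 H2A, 19 H2B, 12 H3 and 13 H4 genes, and 1 of the H2B entries, Hist3h2bb-ps, is annotated as a processed pseudogene. Their RNA was counted in 3 control libraries of hematopoietic stem and progenitor cells (HSPCs), the rare marrow cells that give rise to all blood. The cells were sorted from bone marrow of C57BL/6 mice as lineage-negative, c-Kit-positive and Sca-1-positive, and the genotype of all 3 libraries is Cic flox/flox with tamoxifen treatment. Cic encodes Capicua, a transcriptional repressor. The sources used here give neither the age of the mice nor the Cre driver, and do not say whether each library came from a separate animal, so p-values measure the spread between these libraries, which may be technical. The study set 2 mouse groups side by side. Only the controls are reported, and the other group was not analysed here. No contrast between genotypes was made.

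Core histones H2A, H2B, H3 and H4 form the protein spool of the nucleosome, and linker histone H1 binds the DNA where it enters and leaves that spool. Most clustered histone genes are replication-dependent: they are transcribed mainly in S phase, when new DNA needs new nucleosomes, and they have no introns. Their mRNAs are the known exception among metazoan mRNAs in that they end in a conserved stem-loop, bound by the stem-loop binding protein SLBP, and not in a poly(A) tail. A library primed only at poly(A) tails therefore misses most of them. The labels list the molecule as polyA RNA, but the described NuGEN Ovation amplification, started from 10 ng of total RNA, used random primers together with priming at poly(A) tails. Replication-independent histone genes lie outside the clusters, and those such as H3f3a or H2afz have introns and make polyadenylated mRNA.

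The stem-loop was searched in annotated transcripts (GENCODE M21, build GRCm38, the assembly of mm10) as 16 bases: a stem of GGNNNT, a loop of TTNN and the reverse complement of that stem (N, any base). Of the 68 genes, 44 (64.7%) had such a stem-loop downstream of the stop codon, against 24 of 21884 other protein-coding genes with it anywhere in their longest transcript (0.110%). It started 21 to 58 bases after the stop codon, with a median of 31. The 6 sequences found are shown because they separate the H4 genes from the other types. The 4 loop bases are in capitals.
Stem-loop of 26 genes, among them Hist1h1e, Hist1h2bm and Hist1h3d: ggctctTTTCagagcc
Stem-loop of 6 genes, among them Hist1h2bb and Hist1h3e: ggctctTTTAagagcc
Stem-loop of Hist2h2ac: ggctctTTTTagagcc
Stem-loop of 7 H4 genes, among them Hist1h4d: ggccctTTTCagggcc
Stem-loop of Hist2h4 and Hist1h4i: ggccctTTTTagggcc
Stem-loop of Hist1h4b and Hist1h4j: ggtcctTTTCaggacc
The stem ggctct with agagcc was found in H1, H2A, H2B and H3 transcripts and in no H4 transcript. All 11 H4 stem-loops had one of the other stems. The 24 genes without a match include Hist1h2bl and Hist1h1b, whose annotated transcripts are 381 and 743 bases long. No match says only that these letters are not in the annotated transcript.

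The promoters of Hist1h4d and Hist1h2bm are shown next, because Hist1h4d took the most counts of all members and Hist1h2bm was the highest H2B gene with an upstream window that holds no other annotated histone transcript. Each run is the 250 bases before the RefSeq start (GRCm38.p6), 5′ to 3′ on the gene's own strand, with motif matches in capitals. The motifs searched on both strands were TATAAA (the TATA box, where the general transcription machinery assembles), CCAAT (the CCAAT box, written ATTGG on the other strand) and ATTTGCAT (the octamer, known from H2B promoters as the binding sequence of the POU factor encoded by Pou2f1).
Hist1h4d, chr13:23581318-23581567, + strand: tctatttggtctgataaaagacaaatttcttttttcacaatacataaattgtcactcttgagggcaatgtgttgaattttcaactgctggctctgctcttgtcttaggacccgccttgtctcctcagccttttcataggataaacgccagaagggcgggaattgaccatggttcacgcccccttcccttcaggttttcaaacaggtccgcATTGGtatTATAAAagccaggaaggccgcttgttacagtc
Hist1h2bm, chr13:21721794-21722043, + strand: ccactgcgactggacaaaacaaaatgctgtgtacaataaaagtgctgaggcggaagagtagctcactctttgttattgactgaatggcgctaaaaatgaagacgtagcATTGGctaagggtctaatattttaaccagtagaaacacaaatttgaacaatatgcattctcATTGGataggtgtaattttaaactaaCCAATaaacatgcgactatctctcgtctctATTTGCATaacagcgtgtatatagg
In Hist1h4d the CCAAT box began 40 and the TATA box 32 bases before the start. In Hist1h2bm CCAAT boxes began 142, 81 and 55 bases before the start and the octamer 25 bases before it. RefSeq promoters were matched for 62 of the 68 genes. The TATA box was present in 29 of them (46.8%), against 12.97% of all 27025 promoters of this length. The CCAAT box was present in 51 (82.3%), against 34.5%, and in all 18 H2A, all 16 H2B and all 6 H1 promoters but in 3 of 12 H4 promoters. The octamer was present in 13 (20.97%), against 1.61%, and all 13 were H2A or H2B promoters (7 of 18 and 6 of 16). Neighbouring H2A and H2B genes that face away from each other share the sequence between them, so these are not independent promoters. A match is a description of the letters and not evidence of binding.

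Gene counts summed to 30718562, 25097769 and 30032593 in libraries 1, 2 and 3. All levels below are gene counts scaled to a common library total (CPM), and a gene without a count could have held up to 0.0977 to 0.120 CPM, the level of 3 counts. Library 1 stood apart from the others in its share of the 45S ribosomal precursor Rn45s (11.8% of gene counts, against 8.20% and 7.91%). Spike-in counts fell stepwise from library 1 to library 3, at 1.48, 0.954 and 0.582 per 100 gene counts. Between 15.99% and 17.0% of all entries of a library were non-unique alignments, which the count files hold in a category of their own. All 8 HSPC markers were above 1 CPM, with a median of 307.4 CPM. Of 12 markers of mature blood cells with an entry, 6 reached 1 CPM. Their summed level was 197 CPM in library 1, 255.7 CPM in library 2 and 412 CPM in library 3, most of it from Itgam and Elane, while the globin genes Hbb-b1 and Hba-a1 had no count.

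Clustered histone RNA was a small but well counted share of these libraries. The 68 genes took 28374 counts in library 1, 19446 in library 2 and 23771 in library 3. These were 0.0924% (exact Clopper-Pearson 95% interval 0.0913 to 0.0934), 0.0775% (0.0764 to 0.0786) and 0.0792% (0.0781 to 0.0802) of gene counts, a mean of 0.0830% ± 0.00816 (SD, n = 3). The interval of library 1 overlapped neither of the others. The intervals cover counting error only, since amplified reads are not independent molecules. A mean of at least 1 CPM was reached by 42 of the 68 genes, beside 53.1% of all genes. No count in any library was found for 10 of them, beside 29.0% of all genes. The median level of the 68 was 2.40 CPM, beside 1.73 CPM over all genes.

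**Figure D1:**
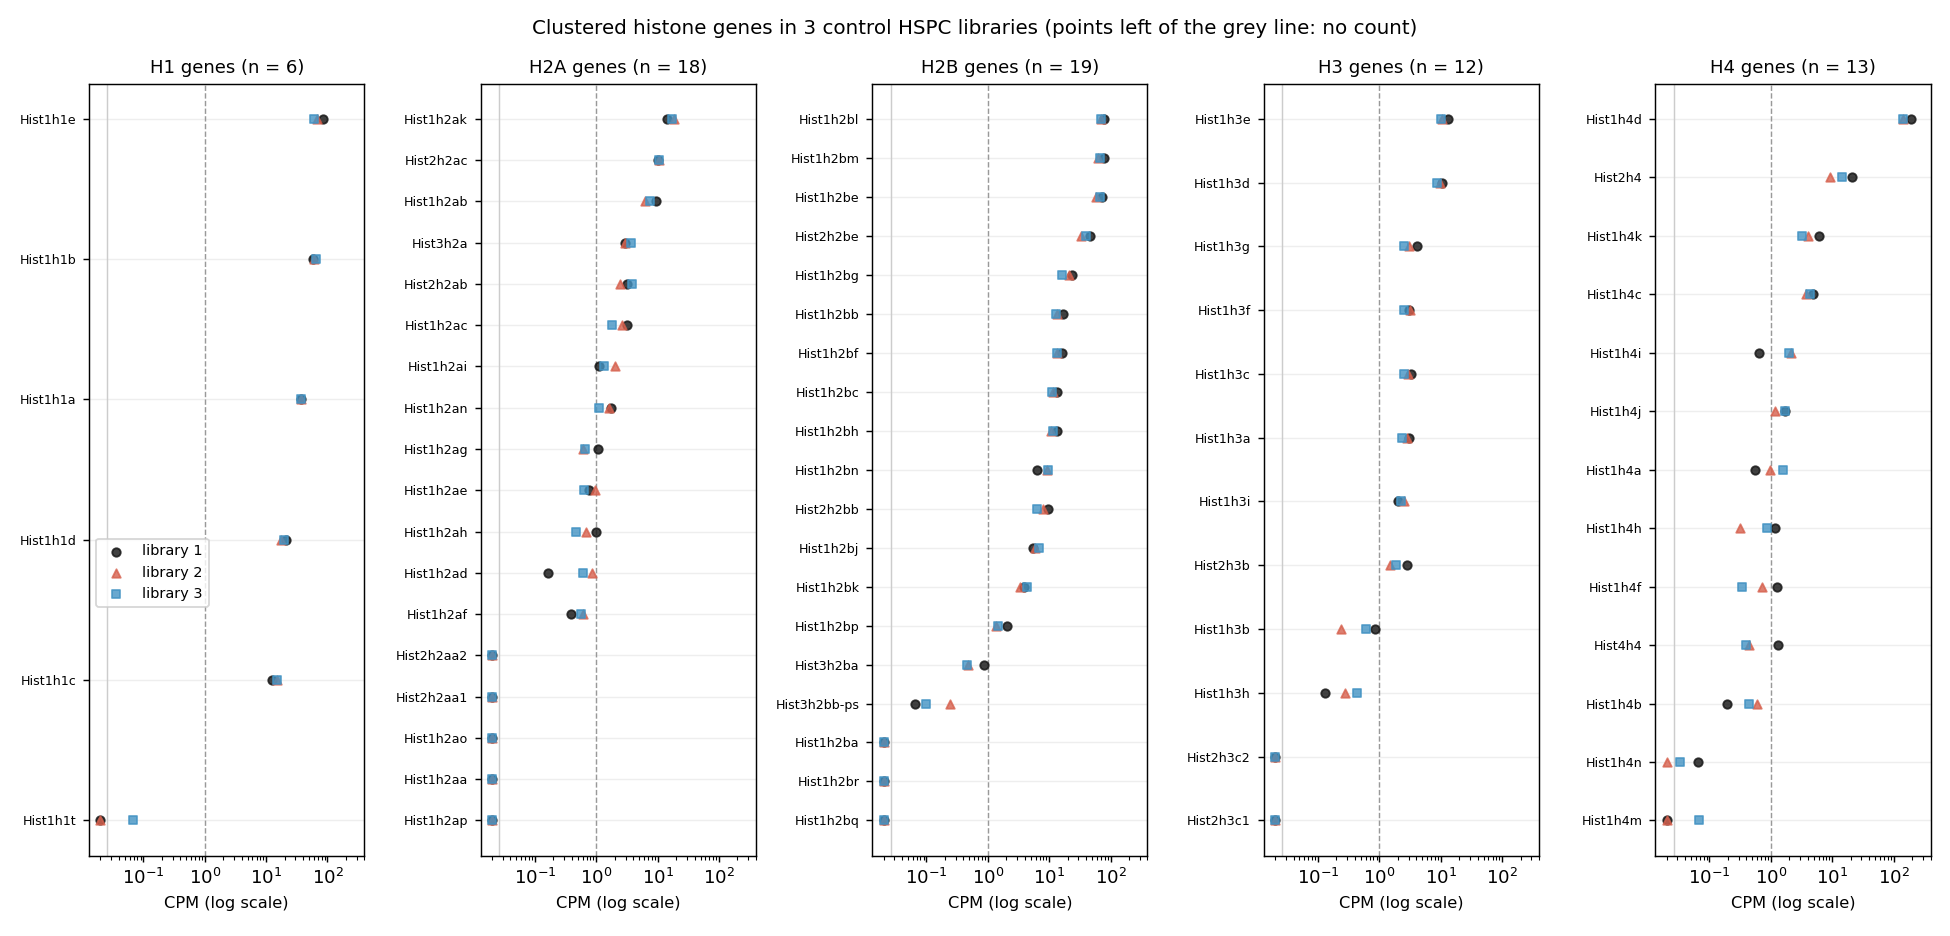
CPM of each of the 68 clustered histone genes in libraries 1, 2 and 3 (log axis, 1 panel per histone type, genes ordered by mean CPM). Dashed lines mark 1 CPM, and points left of the grey line had no count. Levels run from no count to 192 CPM for Hist1h4d in library 1, and for most genes the 3 libraries lie close together.

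By type, H2B genes took the largest share of the clustered histone counts, 42.1% ± 0.491 (SD, n = 3). The H1 genes took 24.5% ± 1.28, H4 22.8% ± 1.90, H2A 6.07% ± 0.622 and H3 4.57% ± 0.248. The 4 core histones are present in equal numbers in the nucleosome. The values here are shares of reads assigned to annotated genes and not of molecules, because transcript length and the loss of reads from identical copies differ between types. Per kilobase of annotated transcript the shares were 51.3% for H2B, 17.1% for H1, 17.0% for H4, 9.77% for H2A and 4.80% for H3. Per kilobase of sequence that no other gene shares, they were 68.6% for H2B, 10.2% for H2A, 8.47% for H4, 6.40% for H1 and 6.34% for H3. The shares per kilobase add up values of single genes, and Hist1h2bl, with 57 unique words, stood at 1270 CPM per kilobase of unique sequence. With the genes of a type pooled, unique sequence gave 28.8 CPM per kilobase for H2B, 24.7 for H4, 16.1 for H1, 8.65 for H3 and 7.84 for H2A. Per kilobase of RefSeq gene length, chosen after seeing the data, the shares were 35.7% for H2B, 33.8% for H4, 18.8% for H1, 7.19% for H2A and 4.53% for H3. That length is the gene's span with introns, which lowers the value of spliced entries such as Hist1h2be (37455 bases). H2B was first on each scale, but its lead over H4 depended on the annotated length and on whether genes were pooled.

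**Figure D2:**
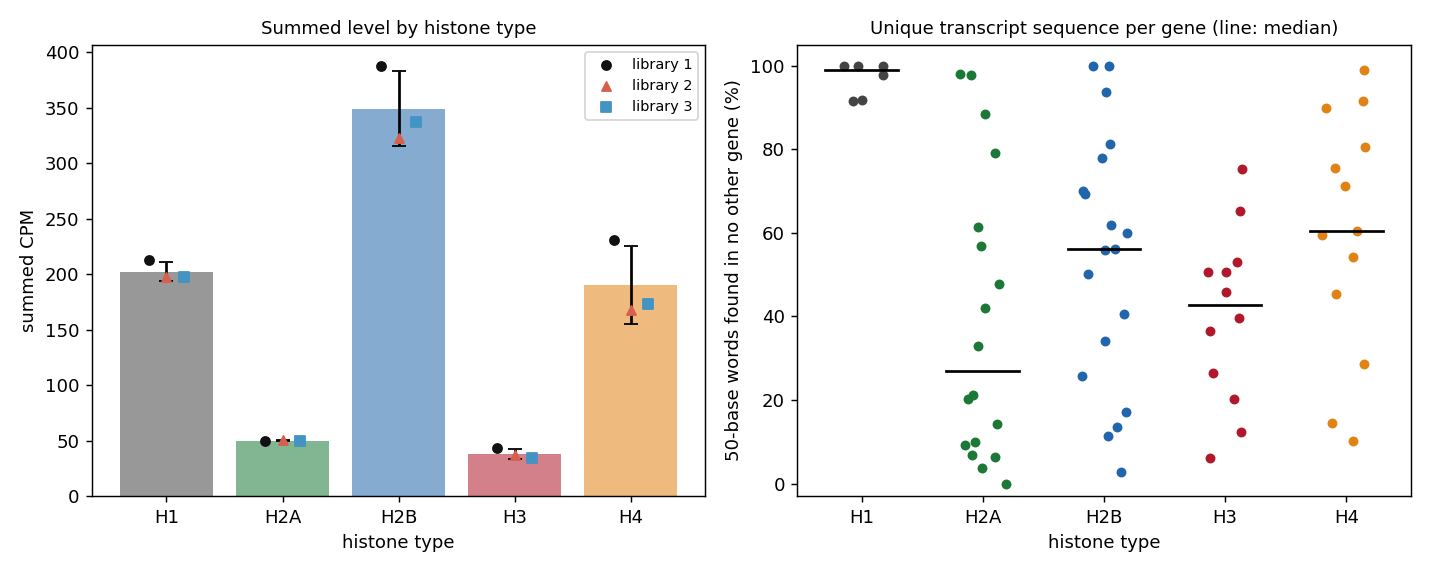
Left, summed CPM of the genes of each histone type (bars, mean of 3 libraries; error bars, SD; points, libraries). Right, the share of 50-base words of each gene's transcripts that occur in no other gene (points, genes; lines, medians), which is lowest for H2A (26.99%) and highest for H1 (98.9%).

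Linker histone counts were spread over 5 of the 6 H1 genes. Hist1h1e (chr13:23620629-23622558, GRCm38), a somatic linker histone gene, had 84.0, 67.97 and 61.5 CPM in libraries 1, 2 and 3, a mean of 71.2 ± 11.6 (SD, n = 3). Hist1h1b, another somatic H1 subtype gene, had 57.9, 59.9 and 64.9 CPM. Hist1h1a, a further subtype gene, had 37.4, 37.1 and 36.8 CPM, a spread of under 1 CPM. Hist1h1d and Hist1h1c followed with means of 19.1 and 14.1 CPM. Hist1h1e, the highest, carried 35.0% ± 4.22 of H1 counts. The remaining gene, Hist1h1t, encodes the H1 of male germ cells and had no count in libraries 1 and 2 and 2 counts in library 3. H1 transcripts are also the most distinct of the clustered types, with 91.5% to 100% of their 50-base words unique. In the annotation Hist1h1e overlaps Hist1h2be on the same strand, and reads in the overlap cannot be assigned to either.

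H4 counts came almost entirely from a single gene. Hist1h4d (chr13:23581598-23582735) had 192, 144 and 143 CPM in libraries 1, 2 and 3, and it made up 84.1% ± 1.68 of all H4 counts. Library 1 was the high library and libraries 2 and 3 were nearly equal. H4 genes encode the same protein from copies that differ in their silent positions and untranslated ends, and the share describes only reads that could be assigned to a copy. Per kilobase of annotated transcript, Hist1h4d stood at 141 CPM, next to Hist1h2bl at 190 and Hist1h2bm at 133. The RefSeq entry of Hist1h4d is shorter (402 bases, against 1138 in GENCODE), and per kilobase of the RefSeq lengths the values were 398, 153 and 145. Which of the 3 genes was highest per kilobase therefore depended on the annotated length.

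The other H4 genes were far lower. Hist2h4, the H4 gene of the cluster on chromosome 3, had 20.8, 9.28 and 14.5 CPM, with library 1 high and library 2 low. Hist1h4k had 6.09, 4.10 and 3.23 CPM, and Hist1h4c had 4.85, 3.79 and 4.395 CPM. Hist4h4, the only gene of the Hist4 symbol, lies on chromosome 6 and had 1.30, 0.438 and 0.400 CPM. Hist1h4m and Hist1h4n, whose transcripts are 10.2% and 14.4% unique, had 2 and 3 counts over all libraries.

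Among H2B genes the counts were spread over many members. Hist1h2bl (chr13:21715763-21716143) had 77.7, 69.5 and 70.0 CPM, and Hist1h2bm had 79.7, 63.4 and 66.5 CPM. Hist1h2be followed with 71.6, 58.0 and 66.7 CPM and Hist2h2be, from the chromosome 3 cluster, with 46.8, 33.0 and 39.7 CPM. In all 4 genes library 1 was highest and library 2 lowest. The highest, Hist1h2bl, carried 20.8% ± 0.738 of H2B counts, and 14 of 19 H2B genes reached 1 CPM. Hist1h2bl reached this level although only 17.2% of its annotated words are unique, the lowest share among the members above 20 CPM. That share covers a GENCODE transcript of 381 bases. The RefSeq gene is 473 bases long, and bases outside the GENCODE transcript were not compared with other genes.

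H2A genes were counted at lower levels. Hist1h2ak (chr13:21753435-21753827) had 14.3, 18.6 and 17.0 CPM, with library 1 low. Hist2h2ac had 10.3, 10.5 and 10.7 CPM, and Hist1h2ab had 9.44, 6.22 and 7.46 CPM. Hist3h2a, from the small cluster on chromosome 11, had 2.99, 2.95 and 3.73 CPM. It overlaps Trim17 in the annotation. Of 18 H2A genes, 8 reached 1 CPM and 5 had no count. The summed H2A level was nearly the same in every library, at 49.5, 50.7 and 49.9 CPM.

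H3 genes held the smallest share of all types on each scale by which shares were given. Per kilobase of unique sequence H1 was close, with 6.34% for H3 against 6.40% for H1. Pooled by type on that sequence, H2A was lower than H3, at 7.84 against 8.65 CPM per kilobase. Hist1h3e (chr13:23561534-23562369) had 13.2, 10.6 and 10.3 CPM, and Hist1h3d had 10.4, 9.76 and 8.62 CPM. Hist1h3g had 4.17, 3.07 and 2.50 CPM, and Hist1h3f 3.09, 3.15 and 2.56 CPM. These clustered H3 genes encode the replication-coupled H3.1 and H3.2 proteins. Library 3 was lowest in all 4. The H3.3 genes outside the clusters, H3f3a and H3f3b, stood at 529.8 ± 10.5 and 244 ± 8.08 CPM (SD, n = 3), or 186 and 97.3 CPM per kilobase, against 13.6 CPM per kilobase for Hist1h3e.

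The genes with no count fall into 2 kinds. Hist1h2aa and Hist1h2ba encode the testis forms of H2A and H2B, and 97.7% and 61.8% of their words are unique, so reads from them could have been assigned. The other 8 share most or all of the sequence up to their stem-loop, or most of their transcript, with copies. They are Hist1h2ao, Hist1h2ap, Hist2h2aa1, Hist2h2aa2, Hist1h2bq, Hist1h2br, Hist2h3c1 and Hist2h3c2. For 6 of these 8 between 0% and 11.3% of all words were unique. Hist2h3c1 and Hist2h3c2 had 65.3% and 36.5% unique words over the whole annotated transcript, but 2.46% and 0% up to the stem-loop. Their 0 is a 0 of uniquely assigned reads. Some genes with few unique words were counted, such as Hist1h2ai (34 unique words, 125 counts over all libraries) and Hist1h2bl (57 and 6234). Hist1h2br has 250 unique words and no count. Whether the 8 genes are transcribed was not settled by these counts.

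Over all members, sequence shared with copies was the rule. The median share of unique 50-base words was 48.1%, against 99.3% for genes of at least 1 CPM, and 34 of the 68 were under 50%. These shares depend on word length. With words of 75 and 100 bases Hist1h2bm rose from 56.2% to 83.1% and 93.4%, and Hist1h2bl from 17.2% to 26.7% and 37.9%. Hist1h2ai changed little, from 9.88% to 10.7% and 11.6%. Values per kilobase of unique sequence used 50-base words only. Of the 15 genes under 20% unique, 5 reached 1 CPM and 6 had no count. Of the 17 genes at 80% or more, 14 reached 1 CPM and 1 had no count. Spearman's rho between the unique share and mean CPM was 0.46 across the 68 genes, as a description: the points share libraries and many share sequence. It was 0.60 within H2A (18 genes), 0.61 within H4 (13), 0.22 within H2B (19) and 0.27 within H3 (12). The count files do not say where in a gene its reads fell, so the part of the low values that is due to lost reads was not tested.

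**Figure D3:**
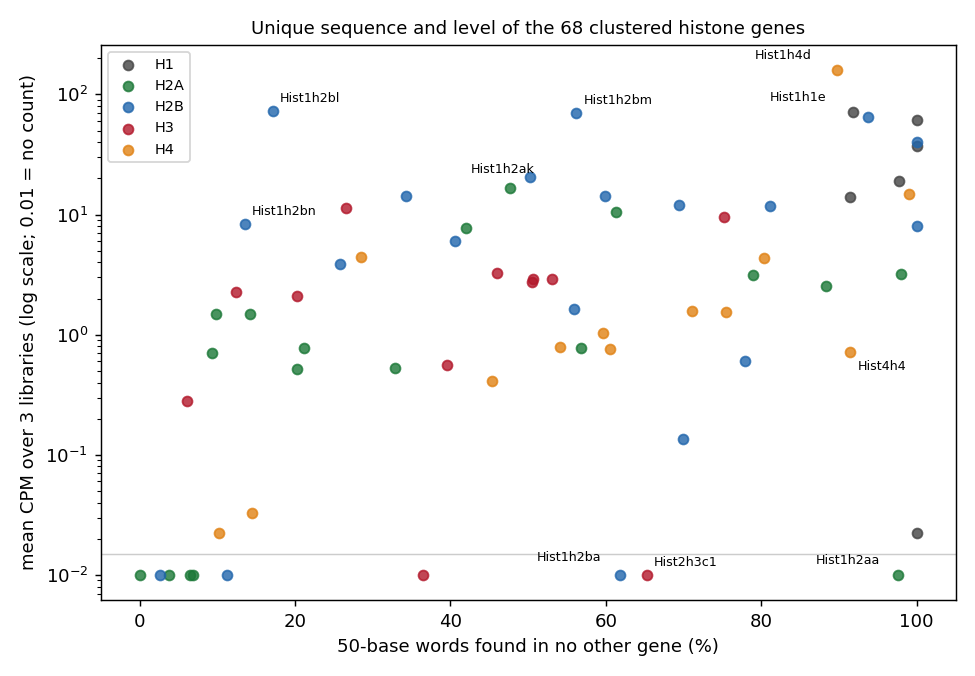
Share of 50-base words found in no other gene (x axis, %) against mean CPM over 3 libraries (log axis) for the 68 clustered histone genes, coloured by type. Points under the grey line had no count. Hist1h2bl combines 17.2% unique words, in an annotated transcript of 381 bases, with 72.4 CPM. The testis gene Hist1h2aa combines 97.7% with no count.

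Stem-loop annotation divides the genes further. In 18 genes the annotated transcript continues more than 300 bases beyond the stem-loop, as in Hist1h4d, Hist1h1e and Hist1h2be. These 18 took 47.4% ± 1.80 of the clustered histone counts, with a median of 6.98 CPM and 84.8% unique words. In 26 genes it ends within 300 bases of the stem-loop. These took 19.2% ± 0.301 of the counts, with a median of 0.779 CPM and 43.7% unique words. The 24 genes without a match took 33.4% ± 2.05. Annotated length and unique share move together here, since the bases beyond the stem-loop are 100% unique in most of these genes, and their parts in the counts cannot be told apart.

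Most of the signal came from a single chromosome. The 54 Hist1 genes on chromosome 13 took 90.0% ± 0.961 of the clustered histone counts. The 10 Hist2 genes on chromosome 3 took 9.40% ± 0.936, led by Hist2h2be, and the 3 Hist3 genes on chromosome 11 took 0.481% ± 0.0585. The single Hist4 gene took 0.0827% ± 0.0506. With gaps over 100 kb as borders, the Hist1 genes form 4 blocks. The block at chr13:23531050-23764406 (233 kb, 29 genes) held 59.3% of the counts and includes Hist1h4d, Hist1h1e and Hist1h2be. The block at chr13:21715763-21837530 (122 kb, 18 genes) held 29.2% and includes Hist1h2bl, Hist1h2bm and Hist1h1b. The block at chr13:22035164-22043676 (5 genes) held 1.58%. The last, at chr13:23933773-23934851, is the testis pair Hist1h2aa and Hist1h2ba with no count. Within the block led by Hist1h2bl, the 6 genes of its far end (Hist1h2bq, Hist1h2ao, Hist1h4m, Hist1h4n, Hist1h2ap and Hist1h2br) had 0 to 3 counts each, and all were under 20% unique.

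**Figure D4:**
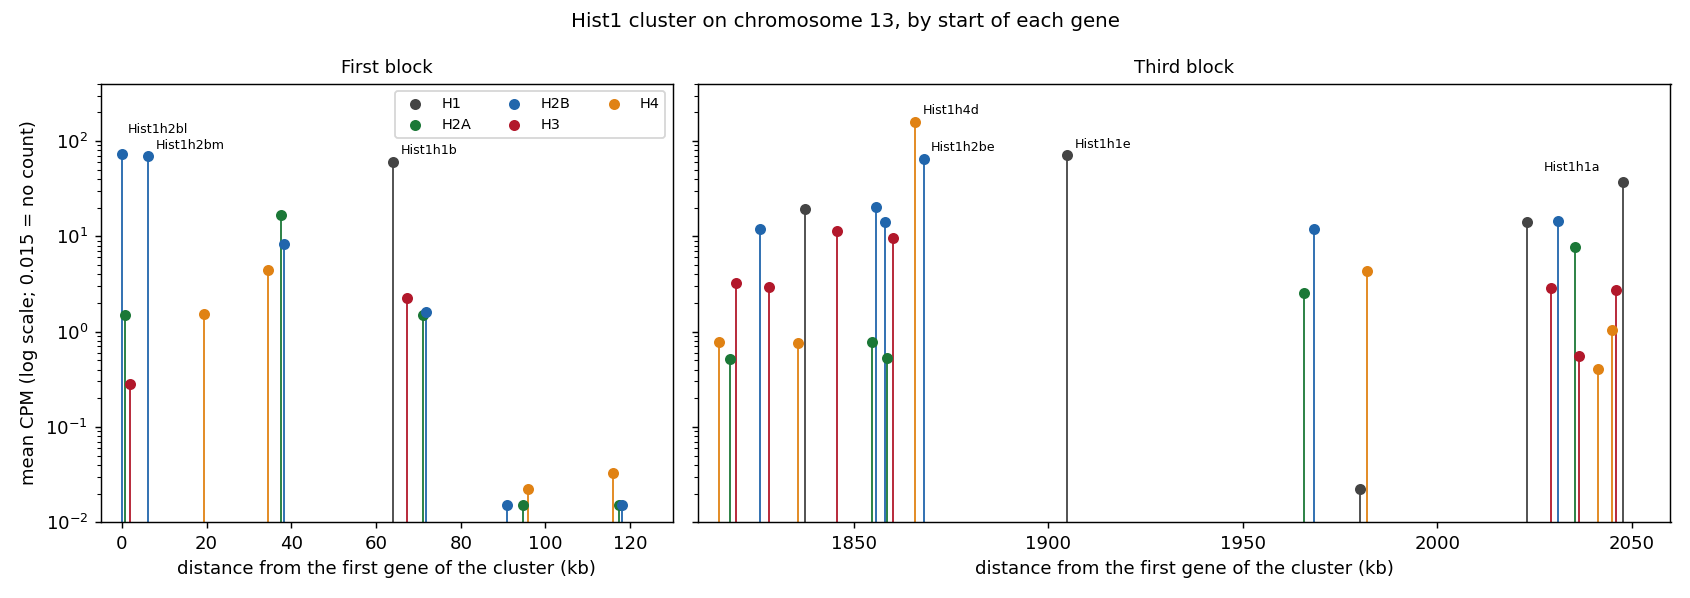
Mean CPM over 3 libraries (log axis) of Hist1 genes by distance of the gene start from the first gene of the cluster (kb), in the first and the third block of the cluster and coloured by type. Points at 0.015 had no count. Hist1h4d (160 CPM) stands next to Hist1h2be (65.4 CPM) in the third block, and the right end of the first block is at or near no count.

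Divergent H2A-H2B pairs gave a comparison of neighbours that share a promoter region. There were 13 such pairs, 172 to 305 bases apart, and 3 of them had no count for either gene. Per kilobase of annotated transcript, H2B was higher in 6 of the other 10 pairs and H2A in 4. In 1 of these 4, Hist3h2a with Hist3h2bb-ps, the H2B partner is the pseudogene. The widest was Hist1h2bl with Hist1h2ai: 2388, 1744 and 2102 counts against 34, 51 and 40 counts, or 190 against 3.79 CPM per kilobase. Both genes of this pair are poor in unique words, with 17.2% and 9.88%. Hist1h2bg with Hist1h2ae stood at 33.0 against 1.11 CPM per kilobase, with 50.3% and 56.8% unique words. In the opposite direction, Hist1h2ak stood at 42.4 CPM per kilobase against 22.05 for Hist1h2bn. This pair reversed per kilobase of unique sequence, to 102 against 187. The pairs were described, not tested, since genes are not replicates.

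Differences between the libraries exceeded counting noise for most of these genes, and no gene was called as more variable than others at its level. A chi-square test of counts between libraries, adjusted by Benjamini-Hochberg over 12965 genes of at least 1 CPM, called 28 of the 42 clustered histone genes, beside 82.6% of all genes tested. In this chi-square test Hist1h4d had an adjusted p of 1.59e-62, and Hist1h1a and Hist2h2ac were not called (0.923 and 0.896). Without library 1 the count fell from 28 to 7 of 42, while the share over all genes tested fell from 82.6% to 51.4%. The variability test of edgeR's quasi-likelihood fit asks for genes more variable than others of like abundance. It called 0 of the 42, beside 0.00771% of all genes (Elane alone). At an unadjusted p under 0.05 it gave 1 of 42, which was Hist2h4, beside 5.0% of all genes, and DESeq2 marked 0 of 42 as dispersion outliers, beside 0.231%.

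A highest over lowest CPM above 2 was seen in 3 of the 42 genes, beside 11.7% of all genes. All 3 were H4 genes. Hist2h4 ranged 2.24-fold. Hist1h4i, with 20, 53 and 60 counts, ranged 3.24-fold, and Hist1h4a, with 17, 24 and 48 counts, ranged 2.89-fold. Library 1 was the highest for Hist2h4 and the lowest for the other two. Without library 1 no clustered histone gene passed this limit, and the share over all genes was not computed for that setting.

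Library 1 was the highest of the 3 on gene counts for 27 of the 42 genes (64.3%), beside 31.9% of all genes. The same held for 7 of the 12 replication-independent histone genes of at least 1 CPM (58.3%). Spike-in counts as the scale move all genes together: on them library 1 was the highest for 0 and the lowest for 40 of the 42, and the highest for 150 and the lowest for 12164 of all 12965 genes. On gene counts the median log2(CPM + 0.5) difference of library 1 from the mean of the others was 0.21, beside -0.05 over all genes of at least 1 CPM. It lay between 0.26 and 0.27 under TMM factors, DESeq2 size factors and totals without Rn45s, and at -0.69 on spike-in counts, where the median of all genes was -1.01. By type the difference was 0.28 for H2B, 0.22 for H3, 0.22 for H4, 0.02 for H1 and 0.00 for H2A on gene counts, and below 0 for every type on spike-in counts. H2B was highest in library 1 for 11 of 14 genes, H3 for 6 of 8, H4 for 4 of 7, H1 for 3 of 5 and H2A for 3 of 8. Library 1 also had the highest Rn45s share and spike-in count. Library 2 had more of both than library 3, but a lower share of clustered histone counts (0.0775% against 0.0792% of gene counts). The part of Rn45s and spike-in counts in the library 1 pattern was not tested.

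Genes of S phase, of histone supply and of histone mRNA processing were set beside this. The 20 S phase genes, among them the replication factors Pcna and Mcm6, were lowest in library 1 for 18 of 20 on gene counts, beside 44.3% of all genes, with a median difference of -0.32 (-0.27 to -0.26 under TMM factors, DESeq2 size factors and totals without Rn45s, -1.31 on spike-in counts). Pcna had 352, 449 and 440 CPM, and Mcm6 317, 406 and 438 CPM. The 18 histone chaperone genes, which carry histones to and from DNA, had a median difference of -0.15. It was -0.10 to -0.09 under the same 3 scalings and -1.15 on spike-in counts. On gene counts library 1 was the lowest for 12 and the highest for 2 of them, beside 44.3% and 31.9% of all genes. The highest gene, Atrx, had 822, 826 and 827 CPM, and Nasp, among the most variable of the list, had 106, 162 and 190 CPM. The 20 genes of histone transcription and mRNA processing lay at -0.01 on gene counts and at 0.03 to 0.04 under those 3 scalings. The 12 mitotic genes lay at -0.06 on gene counts, at -0.01 to 0.00 under those 3 scalings and at -1.05 on spike-in counts. The 12 replication-independent histone genes lay at 0.07 on gene counts, at 0.12 to 0.13 under those 3 scalings and at -0.92 on spike-in counts. A further 8 genes were listed as RNAs without a poly(A) tail: Rn45s, Malat1, Neat1, Rnu73b, Rpph1, Terc, Rmrp and Rnu12. Whether each of them lacks a tail was not tested. Across these genes the difference of library 1 was 0.17 on gene counts and -0.82 on spike-in counts. That of library 2 was 0.18 on gene counts. Library 1 was the highest for 3 and the lowest for 3 of these 8, beside 31.9% and 44.3% of all genes.

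**Figure D5:**
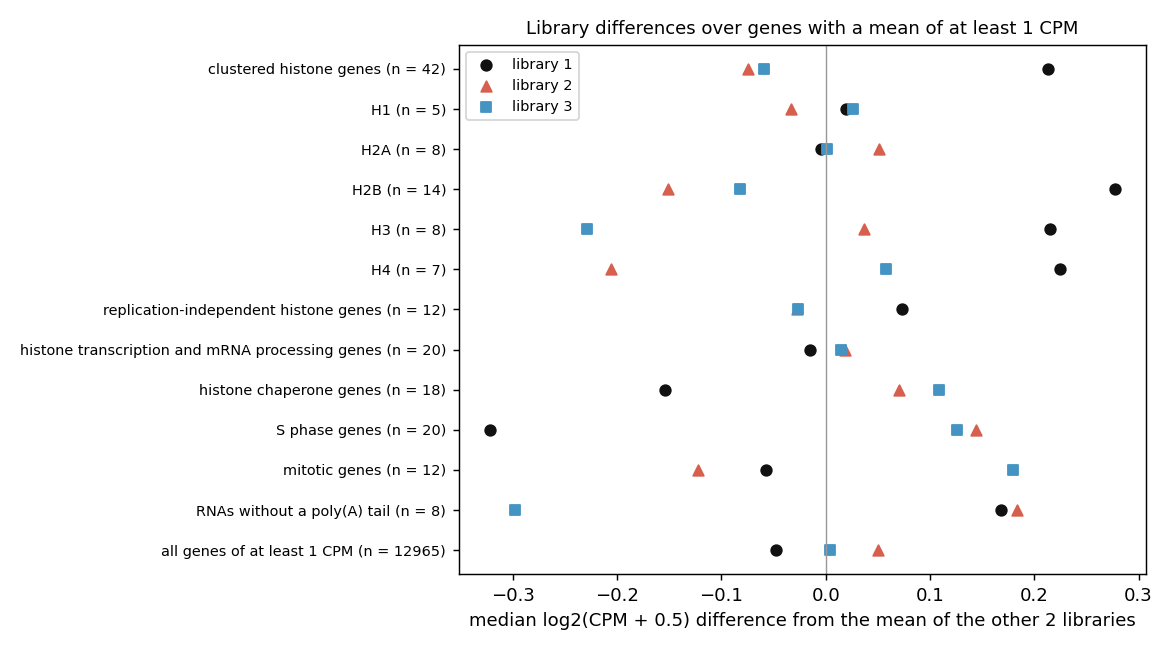
Median log2(CPM + 0.5) difference of each library from the mean of the other 2, on gene counts, for clustered histone genes, their types, comparison lists and all genes of at least 1 CPM (n, genes of at least 1 CPM). Library 1 is at 0.21 for clustered histone genes and at -0.32 for S phase genes. On spike-in counts the clustered histone value is -0.69 and that of all genes -1.01.

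The machinery of histone mRNA was measured throughout. All 20 listed genes of histone transcription and mRNA processing reached 1 CPM, with a median of 94.8 CPM. Slbp, the stem-loop binding protein, had 109, 114 and 107 CPM, and Npat, the coactivator of histone gene transcription, had 141, 139 and 135 CPM. Both were named for their role after their values were seen. The highest of the list were Cpsf2 (223 ± 17.9 CPM, SD, n = 3), a subunit of the cleavage complex, and Ccna2 (198 ± 10.2), the S phase cyclin A. Pou2f1, whose product binds the octamer, had 192, 164 and 139 CPM. The lowest was Zfp473, which works with SLBP in pre-mRNA processing, at 5.72 ± 1.41.

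The median level of the replication-independent histone genes was above that of the clustered genes in every library. Of 15 with an entry, 12 reached 1 CPM, and H2afz, the H2A.Z gene, had 957, 849 and 926 CPM, or 852 CPM per kilobase. H2afy, the macroH2A1 gene, had 1178, 1104 and 1097 CPM, or 280.3 CPM per kilobase. H2afx, the H2A.X gene, had 182, 137 and 134 CPM, with library 1 high. The median log2(CPM + 0.5) of all 68 clustered genes lay below that of the replication-independent list by -3.58, -3.98 and -4.17 in libraries 1, 2 and 3, a mean difference of -3.91 ± 0.30 (SD, n = 3). Per kilobase of transcript the difference was -2.59. The clustered list holds genes that lost reads to identical copies, 34 of 68 under 50% unique against 0 of 15 in the other list, and the part of this in the difference was not tested.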

How the data were processed

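RNA of sorted HSPCs was sequenced on a HiSeq 2500 in 3 control libraries with 400 bp inserts. The authors deposited raw, unnormalized read counts per gene symbol. TopHat2 2.0.9, HTSeq and DESeq2 are named in the submitters' processing notes, with mm10 as the build. The gene model, the strand setting and the versions of HTSeq and DESeq2 were not given in the sources used here, and reads of a gene and its antisense partner could therefore not be separated. By default HTSeq discards reads with several alignments, so near-identical histone copies lose counts. Library sizes and tests used gene entries only, without the 92 spike-in and 5 category entries. The category of reads in no gene held 42.9% to 48.4% and that of non-unique alignments 15.99% to 17.0% of all entries.

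Counts were scaled to CPM on gene totals, and logs were log2(CPM + 0.5), a scale on which differences of low genes are understated. Genes whose mean reached 1 CPM were tested between libraries by a chi-square test and by an F test of edgeR's quasi-dispersion over its trend (intercept only, robust), with Benjamini-Hochberg adjusted p under 0.05 over all genes tested. Benjamini-Hochberg was not applied over the histone genes alone. Transcripts, lengths, 50-base words shared with other genes and stem-loops came from GENCODE M21 (68 of 68 matched by symbol), promoters and second lengths from RefSeq tables of GRCm38.p6 (62 promoters). The edgeR test was tested on simulated counts with 1 library changed. Each simulated gene had the dispersion of the trend, without the scatter of real genes around that trend (prior df 7.77 in the real fit). The shares found below therefore hold for such counts and do not give the power on the real ones. Over 3 runs of 12759 to 12769 genes the share of changed genes it found was 50.7% for a 2-fold change. It was 90.0% for a 4-fold, 99.3% for an 8-fold and 100% for a 16-fold change. Of its 519 calls, 9 were wrong.

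The text names the 4 highest genes of each type, the highest of each cluster, those past the variability test or over 2-fold apart, those without a count, up to 5 highest and 2 lowest genes of each comparison list, and a few more where a sentence says why or where a pair, block or sequence set calls for its members. Genes and lists were chosen with earlier results of these data known. Alternatives covered scaling, minima, pseudocounts, length, denominators and leaving out libraries. Tests ran in edgeR 4.0.16 and DESeq2 1.42.0 under R 4.3.3. Tables and plots were made in Python 3.11.15 (pandas 2.3.3, SciPy 1.17.1, matplotlib 3.10.9, NumPy 2.4.6).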

Additional observations from a re-analysis of the deposited data

Results flagged for a closer look

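Entries outside the gene counts held reads in every library, above the limit that a count of 0 allows. Non-unique alignments came to 44.6, 48.3 and 39.9 per 100 gene counts in libraries 1, 2 and 3. The files do not say which genes they came from, so the part of them that belongs to clustered histone genes was not tested. Spike-in counts came to 1.48, 0.954 and 0.582 per 100 gene counts. Against them the clustered histone genes stood at 6.22, 8.12 and 13.6 counts per 100 spike-in counts, lowest in library 1. On this scale library 1 was the lowest for 12164 of 12965 genes, and its median log2 difference was -1.01 over all genes and -0.69 over the clustered histone genes.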

How the results depend on the processing

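Depth limits the low genes: 3 counts are 0.0977 to 0.120 CPM, and 26 of the 68 genes had a mean under 1 CPM. Reads of identical copies are not in the gene counts. No paired analysis was possible because there is 1 group of samples. TMM factors and DESeq2 size factors moved none of the counts of genes called, over 2-fold apart or of at least 1 CPM by more than 1.5 times. At an unadjusted p under 0.05, edgeR's variability test gave 2 of 42 genes under TMM factors, beside 4.57% of all genes. Without them it gave 1 of 42, beside 5.0%. The number of genes over 2-fold apart was 3 of 42, beside 11.7% of all genes. It was 1 of 24 with a minimum of 5 CPM, 15 of 58 with no minimum and 0 to 2 when a library was left out. The share over all genes was not computed for these alternatives. The chi-square count was 28 of 42, beside 82.6% of all genes tested. Without library 1 it was 7 of 42, beside 51.4%. It was 25 of 43 without library 2, beside 67.3%, and 21 of 41 without library 3, beside 64.4%. At a minimum of 5 CPM it was 20 of 24, and with no minimum 32 of 58. The chi-square share over all genes was not computed at those minima. The adjusted variability count stayed at 0 in all alternatives run. The count of genes of at least 1 CPM was 42, against 24 at 5 CPM and 41 to 43 with a library left out. The median level was 2.40 CPM, against 8.20 for genes of at least 1 CPM and 2.30 to 2.52 with a library left out.

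The share of gene counts was 0.0830%, against 0.0917% without Rn45s, 0.0313% over gene, no-feature, ambiguous and non-unique alignments together, and 0.0783% to 0.0858% with a library left out. Shares by type per kilobase of transcript were 17.1% for H1, 9.77% for H2A, 51.3% for H2B and 17.0% for H4, and per kilobase of unique sequence 6.40% for H1, 10.2% for H2A, 68.6% for H2B, 6.34% for H3 and 8.47% for H4. Pooled by type, unique sequence gave 28.8 CPM per kilobase for H2B and 24.7 for H4. Per kilobase of RefSeq gene length, chosen after seeing the data, the shares were 18.8% for H1, 7.19% for H2A, 35.7% for H2B and 33.8% for H4. With a library left out they were 23.98% to 25.2% for H1, 5.83% to 6.42% for H2A, 41.8% to 42.3% for H2B, 4.48% to 4.71% for H3 and 21.7% to 23.4% for H4. The difference of medians was -3.91, against -2.81 for genes of at least 1 CPM, -2.59 per kilobase and -4.08 to -3.78 with a library left out. On spike-in totals, chosen after seeing the data, the log2 ratio of clustered histone totals reversed, from 0.25 to -0.38 for library 1 over library 2 and from 0.22 to -1.13 for library 1 over library 3. This scale moves all genes together: the median difference of library 1 was -1.01 over all genes and -0.69 over the clustered histone genes. Of 120 values of 20 named genes under 3 other scalings or without a library, 114 moved by less than 1 SD and 6 by more. All 6 were under totals without Rn45s. Leaving out 1 of 3 libraries cannot move a mean by 1 SD of the same 3 values. The values without a library therefore could not have counted as moved.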
